A study of Mus musculus with 6 samples.

Results

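The genes described here are 41 genes of the interferon response and of MHC class I antigen presentation, out of 52550 genes in mouse medulloblastoma. They were found by matching the gene symbol of each transcript entry to a list of names, and all 41 names were present once. The list holds 16 genes of antigen presentation, 24 interferon-stimulated genes and Irf1, a transcription factor that acts on both. Medulloblastoma is a cerebellar cancer, and Eed belongs to the Polycomb complex PRC2, the enzyme that methylates histone H3 at silenced genes. RNA-seq was made from 3 tumours of mutant Eed genotype and 3 tumours of wild-type Eed genotype. The labels describe every sample as tumour tissue of the mouse and give no second treatment or allele. The Eed allele, the promoter or Cre line that drives any deletion, the tumour model and the age of the mice are not stated in the labels or file headers. Whether the 3 tumours of a genotype were taken from different mice is not stated either, and the p-values therefore describe sample-to-sample spread, which may be technical.

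Cells answer to type I interferons (alpha and beta), which signal through the receptor pair Ifnar1 and Ifnar2 and the kinases Jak1 and Tyk2, and to interferon gamma, which signals through Ifngr1 and Ifngr2. The type I signal brings Stat2 and Irf9 into a complex that binds the interferon-stimulated response element in the promoters of antiviral genes. Class I molecules, built of a heavy chain and beta-2-microglobulin, show peptides from inside the cell to cytotoxic T cells. The peptides are cut by the immunoproteasome, carried into the endoplasmic reticulum by Tap1 and Tap2, trimmed by Erap1 and loaded with the help of tapasin. Neural cells are known for low class I levels at rest, and interferon raises both groups of genes.

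Promoter sequences are shown for the genes on which the results turn: Cxcl10 and Ifit3, the interferon-stimulated genes lowest against wild type by fold change, B2m, the most abundant gene of the 41, and H2-Q4 and H2-Q7, the class I genes that were higher in mutant tumours. Each window runs from 250 bases before the gene's start to 50 bases after it, 5′ to 3′ on the gene's strand, from RefSeq on GRCm38.p6. Capitals mark matches to GAAANNGAAA, a spelling of the core of the interferon-stimulated response element, or to TTTCNNTTTC, the same element read on the other strand.
Cxcl10 (chr5:92348840-92349139, minus strand): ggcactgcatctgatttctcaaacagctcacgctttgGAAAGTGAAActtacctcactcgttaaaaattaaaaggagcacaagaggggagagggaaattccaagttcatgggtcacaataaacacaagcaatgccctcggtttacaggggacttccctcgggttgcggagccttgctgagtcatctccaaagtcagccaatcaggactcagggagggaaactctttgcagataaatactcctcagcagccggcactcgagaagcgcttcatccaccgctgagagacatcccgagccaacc
Ifit3 (chr19:34583279-34583578, plus strand): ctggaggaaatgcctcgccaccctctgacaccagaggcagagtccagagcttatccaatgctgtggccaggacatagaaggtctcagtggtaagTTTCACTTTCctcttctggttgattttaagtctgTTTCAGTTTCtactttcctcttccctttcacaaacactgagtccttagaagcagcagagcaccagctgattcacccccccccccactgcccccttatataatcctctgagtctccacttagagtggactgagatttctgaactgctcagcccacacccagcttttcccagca
B2m (chr2:122147437-122147736, plus strand): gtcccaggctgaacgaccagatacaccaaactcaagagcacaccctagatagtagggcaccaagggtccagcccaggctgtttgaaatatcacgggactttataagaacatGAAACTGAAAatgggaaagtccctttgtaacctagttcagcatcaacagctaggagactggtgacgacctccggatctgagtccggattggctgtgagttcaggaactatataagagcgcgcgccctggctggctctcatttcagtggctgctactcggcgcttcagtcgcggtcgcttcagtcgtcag
H2-Q4 (chr17:35379367-35379666, plus strand): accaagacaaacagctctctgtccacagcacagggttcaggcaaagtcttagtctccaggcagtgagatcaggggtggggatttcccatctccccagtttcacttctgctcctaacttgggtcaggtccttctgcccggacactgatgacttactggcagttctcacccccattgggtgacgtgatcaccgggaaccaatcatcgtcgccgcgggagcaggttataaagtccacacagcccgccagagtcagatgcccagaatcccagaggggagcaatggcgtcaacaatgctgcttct
H2-Q7 (chr17:35438905-35439204, plus strand): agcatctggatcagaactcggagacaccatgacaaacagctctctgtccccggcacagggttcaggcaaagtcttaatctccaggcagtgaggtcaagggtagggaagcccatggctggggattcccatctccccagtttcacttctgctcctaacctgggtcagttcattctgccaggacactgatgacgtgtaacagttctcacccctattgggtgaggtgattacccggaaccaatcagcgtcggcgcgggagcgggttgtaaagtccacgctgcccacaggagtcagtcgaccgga

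The element began 213 bases before the start of Cxcl10 and 139 bases before that of B2m, and Ifit3 held it at 156 and 122 bases before its start. Neither H2-Q4 nor H2-Q7 held this spelling in the window, which says only that these letters are not there. A promoter window was found for 33 of the 41 genes. This exact spelling was present in 11 of 18 interferon-stimulated genes (61.1%), 4 of 14 antigen presentation genes (28.6%) and 0 of 1 window for Irf1. Over all genes with a window, 1079 of 27025 (3.99%) held it. Other spellings of the element were not searched, so a window counted without this spelling may still hold the element. The shares therefore compare the spelling and not the presence of the element. A match is a description of the sequence and not a measured binding site.

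The libraries held 26186236 to 26425111 estimated counts, mitochondrial genes took 4.94% to 5.47% of them, and 3 counts corresponded to 0.113 to 0.115 CPM, the count scaled to library size with TMM factors. A list of 10 genes of the cerebellar granule lineage, the cell of origin of many medulloblastomas, and of its tumours was abundant throughout. It holds Atoh1, Barhl1, Zic1, Zic2, Neurod1 and Pax6, with Gli1, Gli2, Mycn and Ccnd1 beside them. The sums were 4055, 4692 and 4095 CPM in mutant tumours, against 4168, 4702 and 4391 CPM in wild-type tumours. Log2 fold changes ran from -0.33 to 0.71, with 7 below 0. For 3 genes all mutant tumours were above all wild-type tumours, beside 13.1% of all genes tested. Eed itself was at 32.6, 36.8 and 30.7 CPM in mutant tumours and at 43.8, 30.1 and 35.6 CPM in wild-type tumours. Those ranges overlap (log2 fold change -0.13 ± 0.144 SE, adjusted p = 0.656, edgeR's quasi-likelihood test with Benjamini-Hochberg adjustment), and because the allele is not known, the level of the transcript does not check the label. Wild-type tumour 2 stood apart: it was the highest of the 6 tumours for 26.6% and the lowest for 26.8% of the 19145 genes tested.

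Of the 41 genes, 38 passed the filter on low counts and were tested, and Oasl1, Usp18 and Zbp1 did not pass. edgeR called 0 of the 38 at an adjusted p under 0.05, where it called 0 of 19145 genes (0%), and the smallest adjusted p among the 38 was 0.134, for H2-Q7. Before adjustment, p was under 0.05 for 2 genes higher in mutant tumours, H2-Q4 and H2-Q7, beside 9.29% of all genes tested, and for 3 genes lower, Psmb9, Ifit3 and Cxcl10, beside 8.78% of all genes (18.1% in both directions). DESeq2, the other count test, called the same H2-Q4 and H2-Q7 higher and no gene lower among the 33 genes to which it gave an adjusted p, beside 2.96% of all genes called higher and 2.26% called lower (5.22% together). The mutant and wild-type ranges did not overlap for 8 of the 38 genes, 3 higher and 5 lower, beside 25.1% of all genes tested (13.1% higher and 11.9% lower). The share without overlap was no higher than that of all genes tested. Log2 fold changes throughout are mutant minus wild type, and their median over all genes tested was -0.01.

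**Figure D1:**
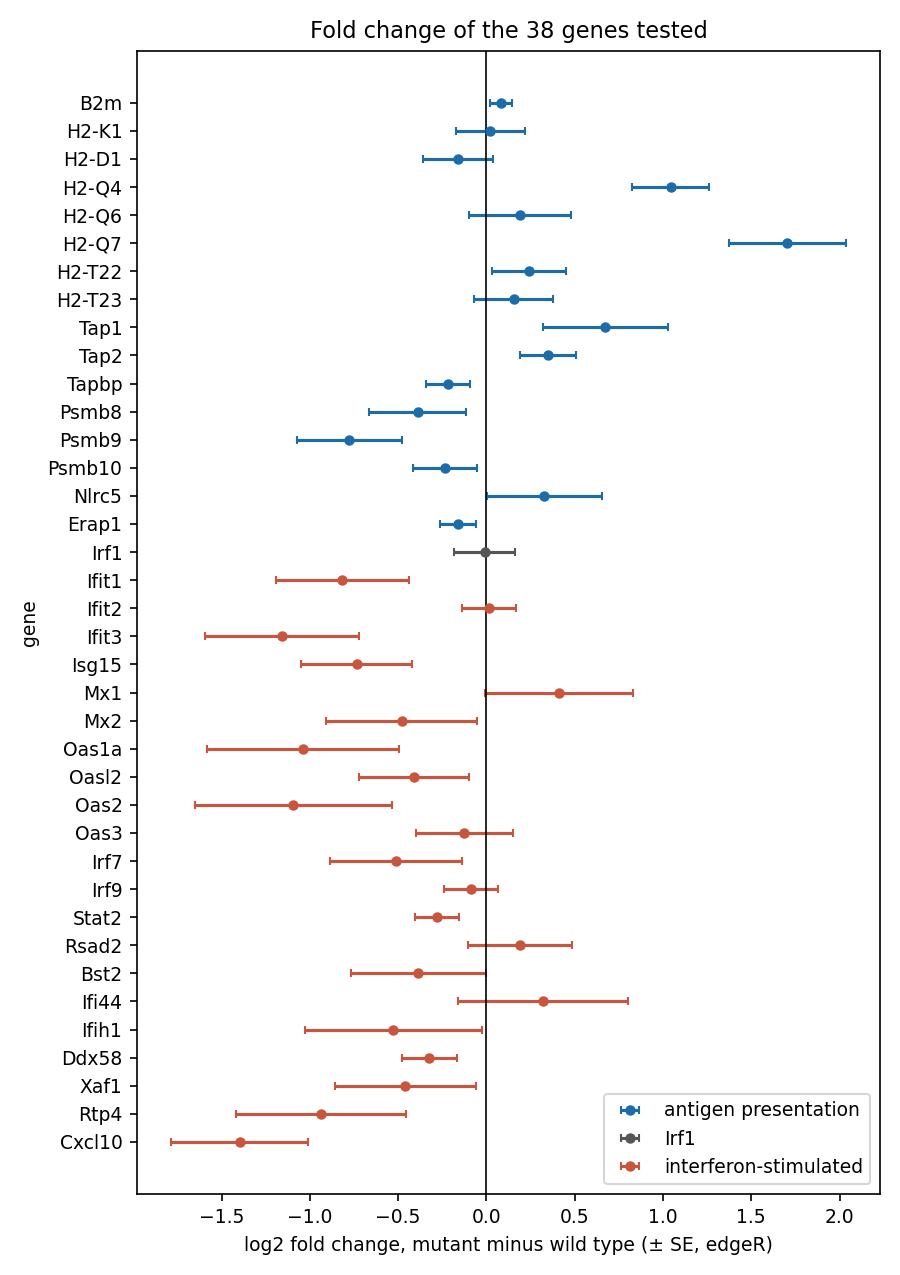
Log2 fold change of mutant against wild-type tumours (x axis) for each of the 38 genes tested (y axis), with the standard error from the edgeR fit over 3 tumours a group, coloured by group of genes. H2-Q7 (1.71) and H2-Q4 (1.04) lie farthest to the right and Cxcl10 (-1.40) farthest to the left.

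Set per transcript length, in TPM, a measure scaled to length and library, the light chain gene B2m was the most abundant of the 41 genes, with a mean of 251 TPM over the 6 tumours. The heavy chain gene H2-D1 followed at 50.1 TPM, then Stat2 at 22.7 TPM, Ifit2 at 18.6 TPM and Psmb10 at 17.02 TPM. Zbp1, a sensor of Z-form nucleic acids, was lowest at 0.29 TPM. Among the 24 interferon-stimulated genes 10 had a mean under 1 CPM, so small numbers of reads set their values.

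The most abundant class I genes did not pass the test, and their ranges overlapped. B2m, at chr2:122147686-122153083 in GENCODE M21 on GRCm38, the source of all gene positions, was at 93.0, 88.7 and 93.4 CPM in mutant tumours, against 91.4, 86.5 and 82.1 CPM in wild-type tumours. It encodes the light chain shared by all class I molecules, and its log2 fold change was 0.08 ± 0.0627 (SE; adjusted p = 0.517, edgeR). The classical heavy chain gene H2-K1 was at 16.4, 11.1 and 14.0 CPM in mutant tumours and at 14.7, 15.5 and 10.6 CPM in wild-type tumours. edgeR put its log2 fold change at 0.02 ± 0.195 (SE), with adjusted p = 0.965. The classical heavy chain gene H2-D1 was at 50.6, 36.9 and 51.9 CPM in mutant tumours and at 56.0, 61.3 and 38.4 CPM in wild-type tumours. Its log2 fold change was -0.16 ± 0.199 (SE), with adjusted p = 0.697 in edgeR. For both heavy chains the spread within a genotype was wider than the distance between the means, and mutant tumour 2 and wild-type tumour 3 were the low samples.

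A pair of class Ib heavy chain genes of the Q region, H2-Q4 and H2-Q7, were higher in all 3 mutant tumours than in any wild-type tumour. H2-Q4 (chr17:35379617-35385290, plus strand) was at 9.39, 10.1 and 8.22 CPM in mutant tumours, against 3.13, 4.87 and 5.40 CPM in wild-type tumours. The means were 9.23 ± 0.939 and 4.47 ± 1.19 CPM (SD, n = 3 each), a log2 fold change of 1.04 ± 0.219 (SE), with adjusted p = 0.144 in edgeR and 0.000851 in DESeq2. H2-Q7 (chr17:35439155-35443773, plus strand) was at 6.57, 9.5 and 6.35 CPM in mutant tumours, against 1.41, 2.13 and 3.35 CPM in wild-type tumours. The means were 7.47 ± 1.76 and 2.29 ± 0.979 CPM (SD, n = 3 each), a log2 fold change of 1.71 ± 0.331 (SE), with adjusted p = 0.134 in edgeR and 5.51e-05 in DESeq2. Neither gene passed edgeR's adjusted threshold. With each tumour left out in turn, DESeq2 called H2-Q7 in all 6 fits, and it lost H2-Q4 without mutant tumour 1 (adjusted p = 0.0551). In those fits it also called Tap1 higher without wild-type tumour 2, with adjusted p = 0.0303, and it called Cxcl10 and Ifit3 lower without wild-type tumour 3, with adjusted p of 0.0207 and 0.00208. The neighbouring H2-Q6 was at 0.569 to 0.739 CPM in mutant tumours and at 0.431 to 0.73 CPM in wild-type tumours, with a log2 fold change of 0.19 and overlapping ranges.

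The higher reading at H2-Q7 was mostly not on its coding transcripts. Over the 6 tumours, 91.6% of its estimated counts were given to transcripts that the GENCODE M21 annotation on GRCm38 types as retained intron, mainly H2-Q7-206. That transcript has 3 exons and 4209 bases, and its exon 3, at chr17:35439909-35443769, is 3861 bases long. Protein-coding transcripts of H2-Q7 had 7.7, 21.6 and 19 estimated counts in mutant tumours, against 1.9, 3.9 and 10.7 in wild-type tumours. Those ranges overlap, since mutant tumour 1 lies below wild-type tumour 3. At H2-Q4 the coding transcript H2-Q4-201 took 76.6% of the estimated counts. It had 183, 208 and 159 estimated counts in mutant tumours, against 57.7, 103 and 115 in wild-type tumours, and these ranges do not overlap. Of the 41 genes, 5 had over 50% of their counts on retained-intron transcripts: H2-Q7, Tap2, Irf7, Oas3 and Oasl1.

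**Figure D2:**
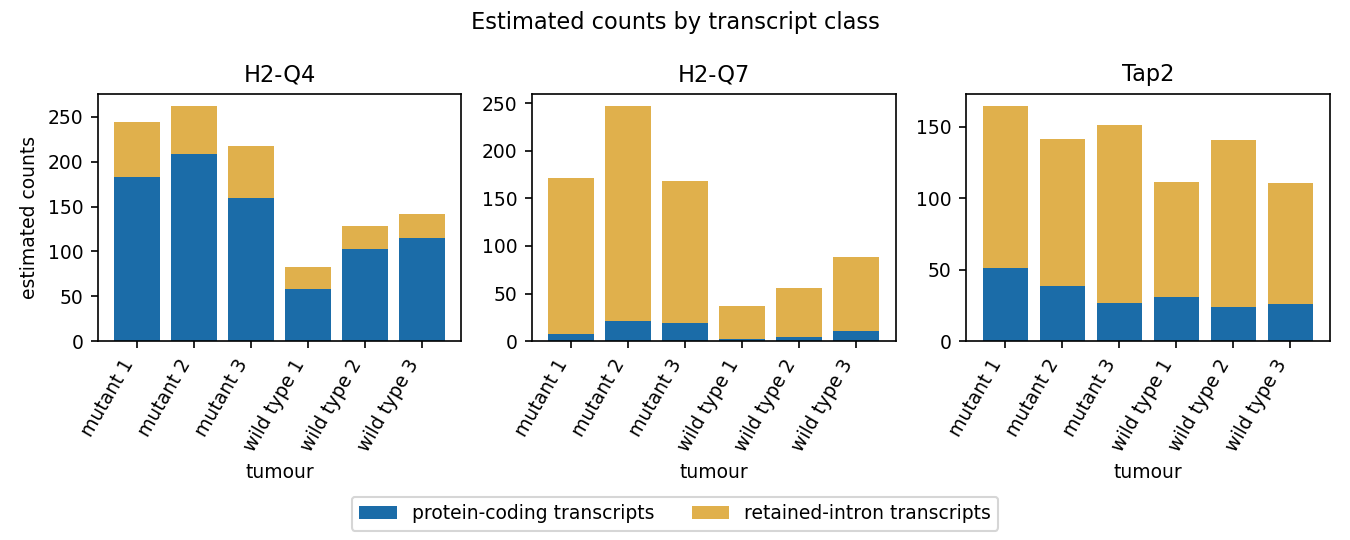
Estimated counts (y axis) per tumour (x axis, mutant tumours left) on protein-coding and retained-intron transcripts of H2-Q4, H2-Q7 and Tap2. At H2-Q7 91.6% of the counts over all tumours lie on retained-intron transcripts, at H2-Q4 23.4% and at Tap2 75.3%. The transcripts of a gene share exons, and the counts are kallisto's division of reads among them.

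The class I genes are near-identical in places, and the estimation step divided shared reads among them. Of the distinct 31-base words of a gene's annotated transcripts, 53.0% were found in another gene for H2-Q4, 51.8% for H2-Q6, 39.2% for H2-Q7 and 67.4% for H2-T22, which shares most with H2-T10. The share was 22.8% for H2-K1, 26.9% for H2-D1 and 0% for B2m. H2-Q4 also shares 16.8% of its words with Gm11131, an overlapping gene, and the strand of the libraries is not stated. By transcript, H2-Q4-201 shares 58.4% of its words with other genes. H2-Q7-206 shares 40.0%, with 23.6% found in H2-Q10. The levels of the Q and T region genes are uncertain for this reason, and the shares do not measure the size of the error. Among the remaining class Ib genes, the log2 fold change was 0.24 for H2-T22 and 0.15 for H2-T23, both with overlapping ranges and both negative without mutant tumour 2 (-0.028 for H2-T22 and -0.041 for H2-T23).

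The transporter genes had higher means in mutant tumours and did not pass the test. Tap1 was at 3.86, 3.15 and 3.86 CPM in mutant tumours, against 2.02, 3.52 and 1.27 CPM in wild-type tumours. Wild-type tumour 2 lies within the mutant range, and edgeR gave a log2 fold change of 0.67 ± 0.352 (SE) with adjusted p = 0.354. Tap2, the partner of Tap1 in the peptide transporter, was at 6.36, 5.53 and 5.75 CPM in mutant tumours, against 4.30, 5.33 and 4.21 CPM in wild-type tumours. Its ranges do not overlap, by a margin of 5.53 against 5.33 CPM, with a log2 fold change of 0.35 ± 0.156 (SE; adjusted p = 0.295, edgeR). Retained-intron transcripts took 75.3% of the Tap2 counts. Exon 6 of that transcript, Tap2-202, has 489 bases and spans exons 6 and 7 of the coding Tap2-201, of 198 and 129 bases. Its exon 1 has 57 bases against 1097, and the other exons are the same or nearly so. The division of counts between the transcripts rests on these stretches, and the share does not measure how much Tap2 RNA kept an intron. Tapbp, which encodes tapasin, had a log2 fold change of -0.22 with overlapping ranges.

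The immunoproteasome subunits, which replace the constitutive catalytic subunits under interferon gamma, all had negative fold changes, and none passed the adjusted test. Psmb8 was at 1.5, 1.46 and 1.55 CPM in mutant tumours, against 1.89, 2.69 and 1.33 CPM in wild-type tumours, a log2 fold change of -0.39 ± 0.275 (SE; adjusted p = 0.481, edgeR). Its ranges overlap because wild-type tumour 3 was the lowest of the 6. Psmb9 was at 0.473, 0.384 and 0.448 CPM in mutant tumours, against 0.658, 0.984 and 0.596 CPM in wild-type tumours. Its ranges do not overlap, with a log2 fold change of -0.78 ± 0.297 (SE; unadjusted p = 0.0343, adjusted p = 0.244, edgeR). Psmb10 had a log2 fold change of -0.23 and overlapping ranges. Psmb8, Psmb9, Tap1 and Tap2 are neighbours on chromosome 17, and Tap1 and Psmb9 run in opposite directions from adjacent starts, so the members of 1 short stretch of the genome had fold changes of both signs.

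Nlrc5, the transactivator of class I genes, was at 1.61, 1.31 and 1.55 CPM in mutant tumours, against 1.51, 1.40 and 0.646 CPM in wild-type tumours. edgeR placed the log2 fold change at 0.33 ± 0.326 (SE) with adjusted p = 0.62, and the value turned negative on the TPM scale (-0.044 with a pseudocount of 1). Erap1, the trimming peptidase of the endoplasmic reticulum, did not overlap between genotypes, at 11.8, 11.5 and 13.1 CPM in mutant tumours against 13.2, 13.7 and 13.8 CPM in wild-type tumours. Its log2 fold change was -0.16 in counts and 0.40 on log2(TPM + 1), so its direction depends on the scale, although it is among the 5 genes counted above as lower. Irf1 was at 5.26, 4.34 and 4.65 CPM in mutant tumours and at 5.55, 4.02 and 4.79 CPM in wild-type tumours, a log2 fold change of -0.01 ± 0.175 (SE; adjusted p = 0.982, edgeR).

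Most interferon-stimulated genes had lower means in mutant tumours, and none passed the adjusted test. Of the 21 tested, 17 had a log2 fold change below 0 and 4 above it, beside 51.4% of all genes tested below 0 and 48.6% above. Their median was -0.46, in a range of -1.40 to 0.41. Without wild-type tumour 2 the median was -0.18, and without wild-type tumour 3 it was -0.73.

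The chemokine gene Cxcl10 (chr5:92346638-92348889, minus strand), whose product draws T cells through Cxcr3, was at 0.767, 0.423 and 0.454 CPM in mutant tumours, against 1.66, 1.86 and 0.836 CPM in wild-type tumours. Its ranges do not overlap, with wild-type tumour 3 just above mutant tumour 1. The means were 0.548 ± 0.19 and 1.45 ± 0.541 CPM (SD, n = 3 each), a log2 fold change of -1.40 ± 0.389 (SE), with unadjusted p = 0.00863 and adjusted p = 0.167 in edgeR. DESeq2 gave it an adjusted p of 0.0713.

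The Ifit genes encode proteins that bind foreign RNA ends and block its translation. Ifit3 was at 1.35, 1.02 and 0.917 CPM in mutant tumours, against 2.92, 3.34 and 1.02 CPM in wild-type tumours. Wild-type tumours 1 and 2 were high and wild-type tumour 3 lay among the mutants, with a log2 fold change of -1.16 ± 0.436 (SE; unadjusted p = 0.0323, adjusted p = 0.239, edgeR). Ifit3 shares 61.8% of its 31-base words with Ifit3b. Ifit1 was at 0.583, 0.655 and 0.382 CPM in mutant tumours, against 0.877, 1.37 and 0.615 CPM in wild-type tumours, a log2 fold change of -0.82 ± 0.376 (SE; adjusted p = 0.304, edgeR) with overlapping ranges. Ifit2 was the most abundant of these genes in TPM, and its mutant values lay inside the wild-type range, at 36.6, 35.3 and 35.8 CPM in mutant tumours and at 44.3, 28.5 and 33.8 CPM in wild-type tumours, with a log2 fold change of 0.02 (-0.047 on log2(TPM + 1)).

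Isg15, a ubiquitin-like modifier, was at 0.909, 0.641 and 0.725 CPM in mutant tumours, against 1.51, 1.51 and 0.814 CPM in wild-type tumours. Wild-type tumour 3 again lay within the mutant range, and edgeR gave a log2 fold change of -0.73 ± 0.315 (SE) with adjusted p = 0.28. Bst2, the tetherin that holds budding virus at the cell surface, was at 3.26, 1.69 and 1.36 CPM in mutant tumours and at 2.94, 3.48 and 1.82 CPM in wild-type tumours. Its log2 fold change was -0.39 ± 0.383 (SE; adjusted p = 0.619, edgeR), with a high mutant tumour 1. Among the 2-5A synthetase family, the log2 fold change was -1.04 for Oas1a, -1.09 for Oas2, -0.12 for Oas3 and -0.41 for Oasl2, each with overlapping ranges. Oas1a shares 68.8% of its words with other genes, nearly all with Oas1g.

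The remaining antiviral effectors, Rtp4, Mx1, Mx2, Xaf1, Rsad2 and Ifi44, had overlapping ranges. Their fold changes lay between -0.94 for Rtp4, a chaperone of receptors, and 0.41 for Mx1, a dynamin-like GTPase. With a tumour left out, Rtp4 ran from -1.23 (without mutant tumour 1) to -0.35 (without wild-type tumour 2), and Mx1 from 0.18 (without wild-type tumour 3) to 0.92 (without wild-type tumour 1). The paralog of Mx1, Mx2, had -0.48 (0.035 on log2(TPM + 1)), Xaf1 -0.46, Rsad2 (viperin) 0.19 and Ifi44 0.32. The RNA sensors Ddx58 (RIG-I) and Ifih1 (MDA5) had -0.32 and -0.53. Ddx58 did not overlap between genotypes, at 6.09, 5.37 and 6.49 CPM in mutant tumours against 7.11, 8.69 and 6.72 CPM in wild-type tumours (adjusted p = 0.32, edgeR). For Ifih1, wild-type tumour 1 alone was high, at 11.9 CPM against 2.97 to 5.30 CPM in the other 5, and without it the log2 fold change was 0.32.

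The transcription factors of the response were unequal in abundance, with means over the 6 tumours of 22.7 TPM for Stat2, 15.2 TPM for Irf9 and 1.27 TPM for Irf7. Stat2 was at 30.5, 34.4 and 34.0 CPM in mutant tumours, against 36.2, 47.9 and 36.0 CPM in wild-type tumours. Its ranges do not overlap, with a log2 fold change of -0.28 ± 0.127 (SE; adjusted p = 0.298, edgeR). Irf9, the DNA-binding partner of Stat2, was at 19.9, 19.7 and 18.2 CPM in mutant tumours and at 17.5, 25.5 and 18.5 CPM in wild-type tumours, a log2 fold change of -0.09 ± 0.153 (SE; adjusted p = 0.794, edgeR) that was 0.0060 on log2(TPM + 1). Irf7, which amplifies type I interferon production, was at 0.96, 0.691 and 1.21 CPM in mutant tumours and at 1.17, 2.04 and 0.874 CPM in wild-type tumours, a log2 fold change of -0.51 ± 0.373 (SE; adjusted p = 0.494, edgeR), and of -0.10 without wild-type tumour 2 and -0.75 without wild-type tumour 3. For all 3 of these genes wild-type tumour 2 was the highest sample.

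The genes below the filter are given as estimated counts and were not tested. Oasl1 had 7, 9 and 6 counts in mutant tumours, against 1, 2 and 3 in wild-type tumours. Zbp1 had 2, 3 and 3 counts in mutant tumours, against 9, 7 and 6 in wild-type tumours. Usp18, the enzyme that removes Isg15 from proteins and brakes the receptor, had 8, 5 and 7 counts in mutant tumours and 9, 28 and 8 in wild-type tumours, with wild-type tumour 2 the high sample.

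**Figure D3:**
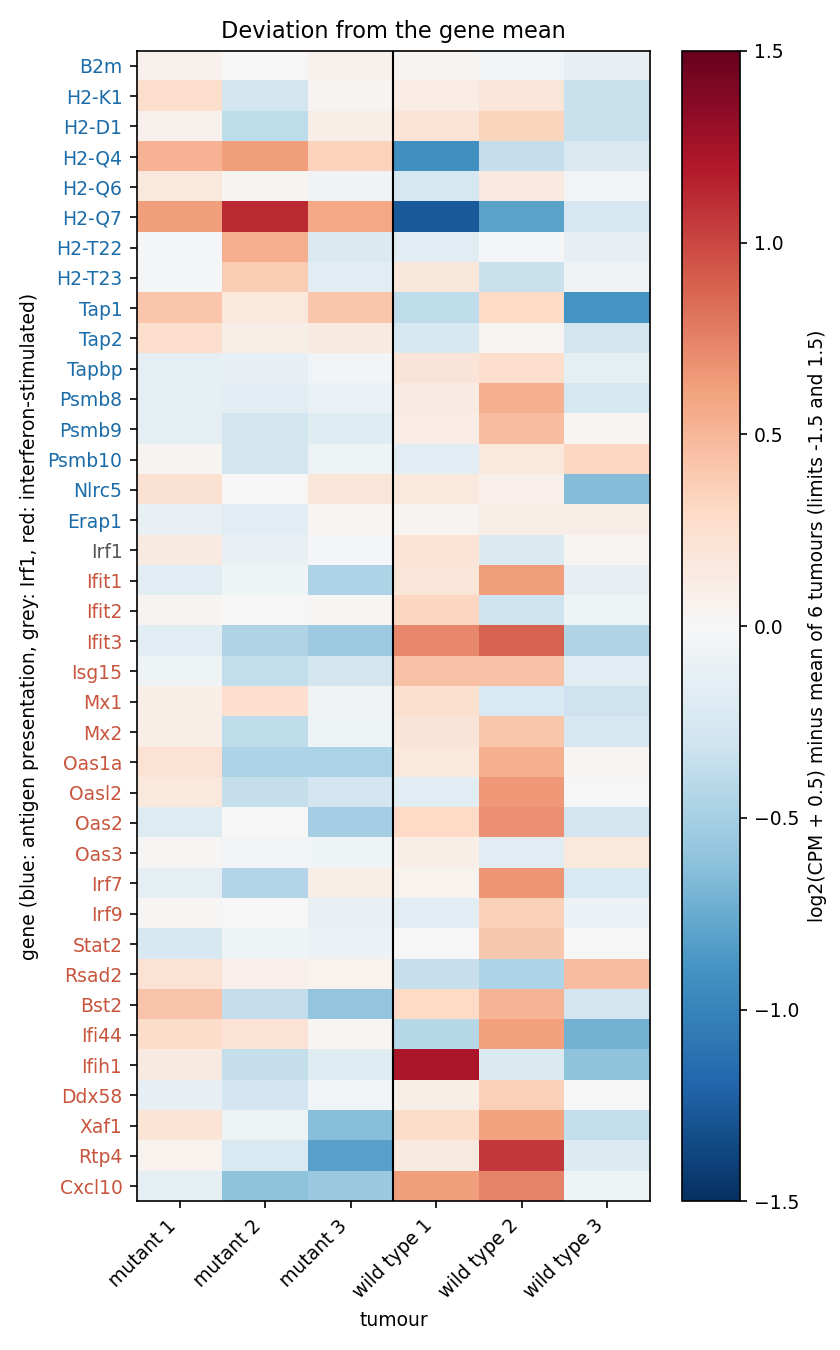
Deviation of each gene from its own mean over the 6 tumours, in log2(CPM + 0.5) and colour-limited at -1.5 and 1.5, for the 38 genes tested (rows) in the 3 mutant tumours (left columns) and 3 wild-type tumours (right columns). Wild-type tumour 2 is the highest sample for 19 of the 38 genes, and H2-Q4 and H2-Q7 are above their mean in every mutant tumour.

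Set side by side, the 2 groups of genes differed in their medians by an amount that varied with the tumours included. The median log2 fold change was -0.46 over 21 interferon-stimulated genes and 0.12 over 16 antigen presentation genes, a difference of -0.58, beside a median of -0.01 over all genes tested. In antigen presentation 10 fold changes were above 0 and 6 below, in a range of -0.78 to 1.71. Without the 7 heavy chain genes the antigen presentation median was -0.16 and the difference -0.30. Per tumour, the median deviation of the interferon-stimulated genes from their own means, in log2(CPM + 0.5), was 0.05, -0.23 and -0.18 in mutant tumours, against 0.18, 0.50 and -0.17 in wild-type tumours. Wild-type tumours 1 and 2 were the highest of the 6, and wild-type tumour 3 lay within the mutant range. For antigen presentation the same measure was 0.06, -0.00 and 0.04 in mutant tumours and 0.04, 0.12 and -0.18 in wild-type tumours. These values overlap, and the pooled SD within genotypes was 0.26 for the interferon-stimulated and 0.114 for the antigen presentation medians. The difference between the medians within each tumour was -0.02, -0.23 and -0.22 in mutant tumours, against 0.14, 0.39 and 0.01 in wild-type tumours, with a pooled SD of 0.158. Every mutant value lies below every wild-type value, with a gap between mutant tumour 1 and wild-type tumour 3 that is smaller than that SD. The difference between the medians was -0.29 without wild-type tumour 2 and -0.78 without mutant tumour 1. The antigen presentation median ran from 0.039 without wild-type tumour 3 to 0.17 without mutant tumour 3.

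**Figure D4:**
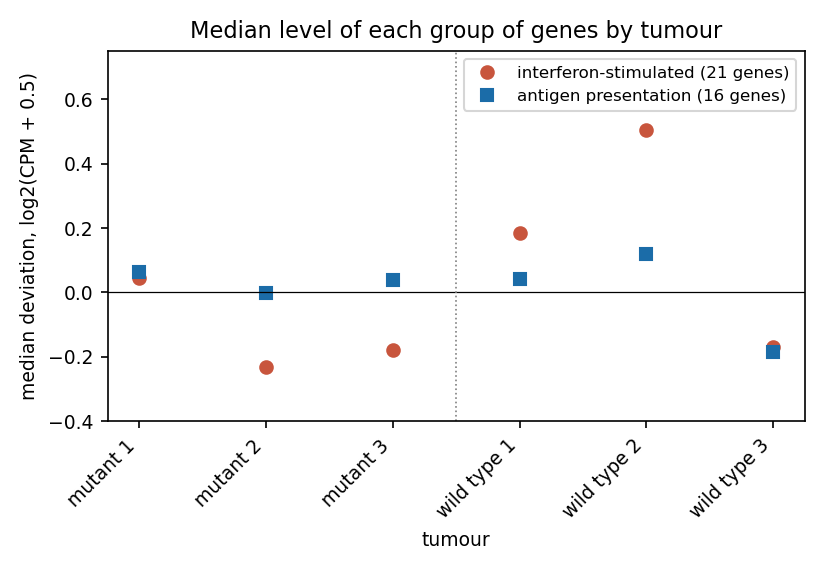
Median deviation from the gene mean in log2(CPM + 0.5) (y axis) over 21 interferon-stimulated genes (circles) and 16 antigen presentation genes (squares) in each tumour (x axis, mutant tumours left). Wild-type tumour 2 is highest for both groups, at 0.50 and 0.12, and the interferon-stimulated value of wild-type tumour 3 (-0.17) lies among those of the mutant tumours.

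Of the 21 interferon-stimulated genes, 1 was highest in mutant tumour 2, 3 in wild-type tumour 1, 15 in wild-type tumour 2 and 2 in wild-type tumour 3. Over all genes tested the shares were 13.2% for mutant tumour 2 and 17.1%, 26.6% and 11.3% for wild-type tumours 1 to 3. Of the 16 antigen presentation genes, 4 were highest in wild-type tumour 2 and 7 were lowest in wild-type tumour 3, where 11.2% of all genes tested were lowest. The 11 interferon-stimulated genes with the searched spelling of the response element in the promoter window had a median of -0.53 in log2 fold change. Of these, 10 were below 0. The 6 whose window lacked this spelling had a median of -0.25, with 4 below 0, and the 4 with no window in the table had a median of -0.71, with 3 below 0. Among antigen presentation genes the median was 0.12 for the 4 with this spelling, with 1 below 0. For the 10 without it the median was -0.07, with 5 below 0, and for the 2 with no window 0.34, with 0 below 0. These groups are split by the spelling searched and not by presence of the element, and no test of the differences was made.

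Upstream of these genes, none of the 11 interferon ligand genes listed had more than 1 count in a tumour. A count of 0 allows up to 3 counts, or 0.115 CPM. Interferon genes outside this list were not counted. Of the 11 ligand genes, 9 had no counts in any tumour, and Ifnk and Ifng had 1 count each, in mutant tumour 2 and wild-type tumour 2. Of 10 receptor and kinase genes 9 were tested, with a median log2 fold change of -0.02 and 0 at an unadjusted p under 0.05. Jak1, the kinase shared by both receptors, was at 124, 136 and 128 CPM in mutant tumours and at 122, 125 and 119 CPM in wild-type tumours, a log2 fold change of 0.08 (adjusted p = 0.486, edgeR). The receptor chains Ifnar1 and Ifngr1 had log2 fold changes of -0.03 and -0.02. Of 9 genes that brake the pathway, 2 had an unadjusted p under 0.05, the phosphatase genes Ptpn1 (log2 fold change 0.21) and Ptpn11 (0.19), beside 18.1% of all genes tested, and neither passed the adjusted test.

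Among 17 genes of nucleic acid sensing, the median log2 fold change was -0.02, and 2 genes had an unadjusted p under 0.05, Zc3hav1 and Mb21d1, beside 18.1% of all genes tested. Zc3hav1 encodes the zinc-finger antiviral protein, which binds CpG-rich viral RNA, and was at 42.2, 32.8 and 40.0 CPM in mutant tumours, against 19.2, 15.0 and 13.0 CPM in wild-type tumours. Its log2 fold change was 1.28 ± 0.163 (SE), with adjusted p = 0.104 in edgeR and 8.39e-10 in DESeq2. Mb21d1 encodes cGAS, the sensor of cytosolic DNA, and was at 13.1, 14.4 and 16.2 CPM in mutant tumours, against 7.63, 3.04 and 5.38 CPM in wild-type tumours. Its log2 fold change was 1.44 ± 0.306 (SE), with adjusted p = 0.144 in edgeR and 0.000135 in DESeq2. Neither pair of ranges overlaps, and DESeq2 called both genes in all 6 fits that leave out a tumour. Tmem173, which encodes STING, the partner of cGAS, had a log2 fold change of 0.21 and overlapping ranges.

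Another 30 interferon-induced genes outside the 41 were counted in the same way. Of 26 tested, 20 had a log2 fold change below 0 and 6 above, beside 51.4% and 48.6% of all genes tested, with a median of -0.31, and 14 were highest in wild-type tumour 2. At an unadjusted p under 0.05 there were 7 lower and 2 higher, beside 8.78% of all genes lower and 9.29% higher. DESeq2 called 1 in each direction, beside 2.26% of all genes lower and 2.96% higher. Samd9l, a growth-restraining antiviral factor, was at 27.1, 15.7 and 20.3 CPM in mutant tumours, against 9.17, 7.46 and 10.6 CPM in wild-type tumours, a log2 fold change of 1.21 ± 0.223 (SE; adjusted p = 0.13 in edgeR and 3.41e-05 in DESeq2). Ifitm3, which blocks viral entry, was at 6.99, 5.42 and 6.92 CPM in mutant tumours, against 9.97, 12.6 and 9.16 CPM in wild-type tumours, a log2 fold change of -0.72 ± 0.176 (SE; adjusted p = 0.152 in edgeR and 0.0121 in DESeq2). Neither gene's ranges overlap. Samd9l kept its DESeq2 call in all 6 fits that leave out a tumour, and Ifitm3 lost it in 4, with adjusted p of 0.0733 to 0.111. Epsti1 and Gbp3, the other named genes of this group, had log2 fold changes of -1.25 and -0.69. Of 22 further class I pathway genes, 20 were tested, with a median log2 fold change of 0.03. Fcgrt (-0.36), which encodes the neonatal Fc receptor heavy chain, and Tapbpl (-0.55), which encodes a peptide editor related to tapasin, had an unadjusted p under 0.05, a count of 2 beside 18.1% of all genes tested.

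**Figure D5:**
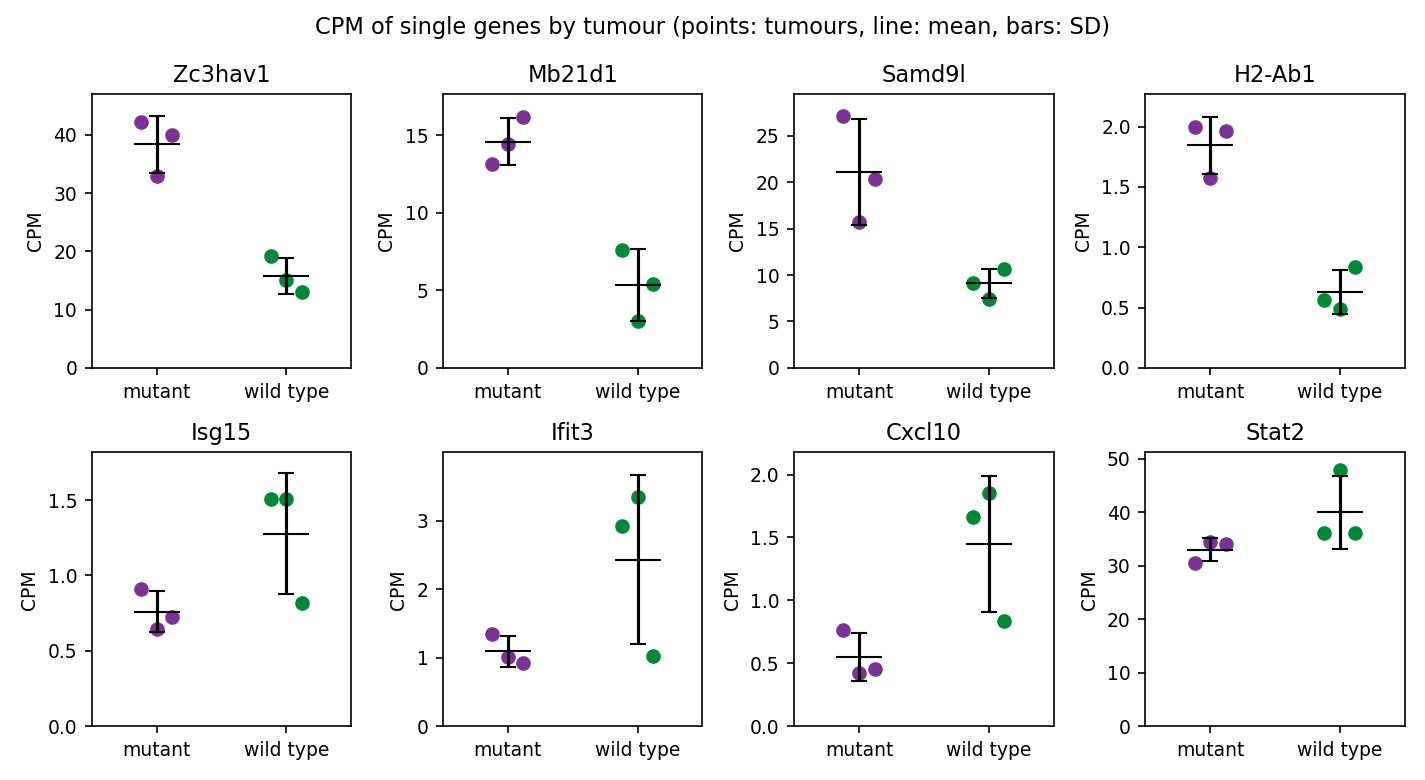
CPM (y axis, from 0) in each mutant tumour (left) and wild-type tumour (right) for 8 genes, with the mean and SD over 3 tumours. Zc3hav1, Mb21d1, Samd9l and H2-Ab1 are higher in every mutant tumour than in any wild-type tumour. In the lower row, wild-type tumour 3 reaches the mutant range for Isg15 and Ifit3. For Cxcl10 the highest mutant tumour is at 0.767 CPM and wild-type tumour 3 at 0.836 CPM, and for Stat2 the highest mutant tumour is at 34.4 CPM and the lowest wild-type tumour at 36.0 CPM.

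These are pieces of tumour, in which fewer cells of a type and less RNA per cell cannot be told apart, and markers of other cells differed between the tumours. The 14 microglia and macrophage markers summed to 342, 351 and 407 CPM in mutant tumours, against 543, 457 and 364 CPM in wild-type tumours. Of these, 11 were highest in wild-type tumour 1 and 13 had a log2 fold change below 0, with a median of -0.30. The 6 oligodendrocyte markers summed to 326, 376 and 400 CPM in mutant tumours, against 507, 1436 and 837 CPM in wild-type tumours. All 6 were lower in every mutant tumour than in any wild-type tumour, beside 11.9% of all genes tested, with a median log2 fold change of -1.48. DESeq2 called all 6 lower, beside 2.26% of all genes, and the smallest adjusted p in edgeR was 0.149. All 6 were highest in wild-type tumour 2, where 15 of 21 interferon-stimulated genes were highest. The 5 astrocyte markers summed to 1320, 1081 and 1577 CPM in mutant tumours and to 1742, 1868 and 1296 CPM in wild-type tumours. The 8 endothelial markers summed to 178, 167 and 175 CPM in mutant tumours, against 120, 140 and 155 CPM in wild-type tumours. Of these, 7 had a log2 fold change above 0, with a median of 0.31. For 3 of them all mutant tumours were above all wild-type tumours, beside 13.1% of all genes tested. DESeq2 called 2 of the endothelial markers higher, beside 2.96% of all genes, and the smallest adjusted p in edgeR was 0.142. The part of these cells in the values of the 41 genes was not tested. Of 12 T and NK cell markers only Cd3d and Cd4 passed the filter, and Gzmb and Klrb1c had no counts in any tumour. The 4 neutrophil markers summed to at most 8 counts in a tumour and the 4 B cell markers to at most 29.

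Class II genes encode the molecules that present peptides to helper T cells. Of 7 listed genes 6 were tested, with log2 fold changes of -1.43 to 1.54 and a median of -0.17. Before adjustment, p was under 0.05 for 1 higher (H2-Ab1) and 3 lower (H2-Aa, Ciita and Cd74, the invariant chain, at -1.43), beside 9.29% and 8.78% of all genes tested. H2-Ab1 was at 2.00, 1.57 and 1.97 CPM in mutant tumours, against 0.566, 0.492 and 0.836 CPM in wild-type tumours, a log2 fold change of 1.54 ± 0.261 (SE; adjusted p = 0.128 in edgeR and 0.00445 in DESeq2). H2-Aa, which encodes the alpha chain that pairs with H2-Ab1, was at 0.346, 0.307 and 0.189 CPM in mutant tumours, against 1.02, 0.53 and 0.494 CPM in wild-type tumours, a log2 fold change of -1.27 ± 0.418 (SE; adjusted p = 0.203, edgeR). Neither pair of ranges overlaps. Ciita, the transactivator of class II genes, had a log2 fold change of -0.46. DESeq2 lost the H2-Ab1 call without mutant tumour 1, mutant tumour 3 or wild-type tumour 2, with adjusted p of 0.0523 to 0.149.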

How the data were processed

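RNA-seq of 6 tumours was analysed from 1 deposited file per sample, in which the authors give kallisto estimated counts per transcript, per the file headers, and deposited TPM values beside them. kallisto 0.43.1 and the builds GRCm38 and mm10 are given in the submitters' processing notes. No source used here states the annotation release, read length, strand or RNA selection. Estimated counts of the 131100 transcripts were summed per gene and rounded, TPM was summed, and coordinates came from GENCODE M21 by identifier. Genotypes were compared in edgeR 4.0.16 (R 4.3.3; TMM, default expression filter, quasi-likelihood F-test, Benjamini-Hochberg over 19145 genes, threshold 0.05). Ranges that do not overlap mean that every mutant CPM lies on the same side of every wild-type CPM.

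The 41 genes, the gene lists and the tests were chosen with earlier results of these data known. The rule for named genes gave per-sample values for 15 listed genes and any with an unadjusted p under 0.05, and from each further list up to 4 genes with the smallest such p. Tap2, Erap1, Ddx58, Ifih1, Ifit2, Tmem173, H2-Ab1, H2-Aa and Ciita were named after their values were seen. Of the genes that the rule names, 1 is not reported here. Lists are described by counts and medians only. Alternatives were DESeq2 1.42.0, limma 3.58.1 (voom, and trend on log2(TPM + 1) or log2(TPM + 0.1)), other scalings and filters, the replicate number as a block, the code in each file name as a term, and each tumour left out. DESeq2 with each tumour left out was added after seeing the data. The meaning of the file codes was not given. Mutant tumours 1 and 2 share a code with wild-type tumour 2, mutant tumour 3 shares another with wild-type tumour 3, and wild-type tumour 1 has its own. The count fits were tested on simulated data, where a larger share of the calls was false with DESeq2 than with edgeR. Depth limits precision, and intervals are not given because sums of estimated counts are not independent reads.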

Additional observations from a re-analysis of the deposited data

How the results depend on the processing

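Over all genes, where edgeR called 0, DESeq2 called 524 higher and 399 lower, limma-voom 1 higher, limma-trend on log2(TPM + 0.1) 1 higher and edgeR with no filter 3 higher. Leaving out 1 tumour gave 0 to 6 higher and 0 to 3 lower. Among the 41 genes DESeq2 called 2 higher, and an unadjusted p under 0.05 gave 2 higher and 3 lower. DESeq2 with a tumour left out called 1 to 3 higher (1 without mutant tumour 1, 3 without wild-type tumour 2) and 0 to 2 lower (2 without wild-type tumour 3). The deviations of same-numbered tumours correlated at 0.25, 0.11 and -0.14, and since the third pair was not above 0.1 the tumours were taken to share only a number; the replicate block gave 189 higher and 84 lower over all genes and 0 and 0 among the 41. The interferon-stimulated median was -0.73 to -0.18 with a tumour left out. The difference between the medians was -0.33 on log2(TPM + 1), -0.30 without heavy chain genes and -0.78 to -0.29 with a tumour left out. The antigen presentation median was -0.16 without heavy chain genes. The cause of these shifts was not tested.

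Fold changes that turned sign had adjusted p above the threshold throughout. With the file code as a term, H2-Q6 was -0.037, Irf1 0.13, Ifih1 0.29, Ifnar1 0.0018, Ifngr1 0.093 and Eed 0.020. Wild-type tumour 1 is alone in its code and does not inform these fold changes, so that fit is close to leaving this tumour out. On log2(TPM + 1) and log2(TPM + 0.1), Nlrc5 was -0.044 and -0.18, Erap1 0.40 and 0.46, Ifit2 -0.047 and -0.048, Mx2 0.035 and 0.038, Irf9 0.0060 and 0.0077, and Eed 0.0089 and 0.0090. By library size alone Ifit2 was -0.0023. With a tumour left out, H2-K1 ran -0.13 to 0.16, H2-T22 -0.028 to 0.40, H2-T23 -0.041 to 0.30, Irf1 -0.12 to 0.11, Ifit2 -0.12 to 0.21, Irf9 -0.19 to 0.10, Rsad2 -0.00075 to 0.60, Ifi44 -0.017 to 1.12, Ifih1 -0.86 to 0.32, Ifnar1 -0.080 to 0.020, Ifngr1 -0.11 to 0.073 and Eed -0.25 to 0.019. Genes under 1 CPM rest on few reads, which limits what differences could be detected there.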

Other observations

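H2-Q4, H2-Q7 and H2-Ab1 lie in the MHC region of chromosome 17, here taken from Tapbp to H2-T22 (chr17:33915899-36042747). Of the 116 genes tested there, 18 were higher in every mutant tumour than in any wild-type tumour, beside 13.1% of all genes tested. Another 7 were lower in every mutant tumour, beside 11.9% of all genes tested. Together these were 21.6% of the region's genes, beside 25.1% of all genes tested. The median log2 fold change in the region was 0.04. DESeq2 called 7 of these 116 genes, namely 1110038B12Rik, Abhd16a, H2-Ab1, H2-Q4, H2-Q7, Hspa1b and Prrt1. Over all 17679 genes to which it gave an adjusted p, it called 5.22%. The 116 are the genes that passed edgeR's filter, and how many of them had an adjusted p in DESeq2 was not counted.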
